A study of Mus musculus with 12 samples.

Results

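Eukaryotic initiation factor 3 (eIF3) is the largest of the factors that start translation. It is a complex of many proteins that binds the 40S ribosomal subunit, holds it ready for the initiator tRNA and the mRNA, and keeps it apart from the 60S subunit. Eif3a and Eif3c form its scaffold, and with Eif3e and Eif3l they carry a PCI domain, whereas Eif3f and Eif3h carry an MPN domain. Eif3b, Eif3g and Eif3i form a separate module of RNA-recognition and WD40 proteins, and Eif3d is a peripheral subunit that can bind the cap of some mRNAs. The 10 genes described here are Eif3a, Eif3b, Eif3c, Eif3d, Eif3e, Eif3f, Eif3g, Eif3h, Eif3i and Eif3l. They were picked by symbol, not by a cut on their values, from the 10607 genes of the table of normalized reads. Earlier results of these data were known when they were picked. All 10 passed the filter on low values.

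The livers were those of 3 wild-type (WT) mice and 3 mice with a knockout (KO) of Mettl5. The paper calls the WT mice littermate controls. A WT and a KO mouse of the same number were taken here as littermates, which gives 3 litters. METTL5 places N6-methyladenosine on 18S rRNA of the 40S subunit, and the study asked how its loss affects translation. In the KO line, a floxed exon 2 was removed in the whole body by a CMV-driven Cre, on stem cells from a cross of C57bl/6 and 129S6 backcrossed to B6. All 6 lysates contained cycloheximide, and the sex and age of each mouse are not given in the sources used here. From each liver, RNA of the lysate was sequenced as input, and fragments shielded by ribosomes (RPF) were sequenced beside it. Translation efficiency (TE) is the RPF value of a gene divided by its input value.

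RPF of Mettl5 itself was lower in KO mice. Values are reads divided by 1 factor per library, and a gene passed a test where its adjusted p was under 0.05. The normalized input value of Mettl5 was 38.5, 28.2 and 15.7 in WT mice 1 to 3 and 8.55, 9.30 and 7.995 in KO mice 1 to 3, with no overlap, but this difference of −1.59 on the log2 scale did not pass (adjusted p = 0.999, edgeR). Its RPF value fell by 2.64 on the log2 scale (adjusted p = 0.00504, and 0.0519 without KO mouse 2, limma). The 6 input libraries held 2398804 to 5121304 reads in the table and the 6 RPF libraries held 4623826 to 9184242, with KO mouse 1 the deepest input. The eIF3 genes had 75 to 1020 reads in input and 109 to 2208 in RPF. The tissue label was met by the summed level of 5 hepatocyte markers, which was 74800 to 93600 CPM outside rRNA and Lars2 in WT and 76900 to 88000 in KO. The 5 stellate cell markers summed to 236 to 248 in WT and 257 to 350 in KO, so this list did not overlap between genotypes. Of 8994 single genes, 3.65% were higher in input in every KO mouse than in every WT mouse, and 5.60% were lower. The lists of hepatocytes, Kupffer cells, liver endothelial cells, cholangiocytes and blood cells did overlap. The part of the stellate cell difference in the eIF3 values was not tested. In whole liver, fewer cells of a type and less RNA per cell cannot be told apart.

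The 10 genes lie on 6 chromosomes and have coding sequences (CDS) of 963 bases in Eif3g to 4035 bases in Eif3a, in the mm10 (GRCm38) annotation of GENCODE. All 10 lacked an ATG in the annotated 5′ untranslated region, as did 51.0% of 8768 tested genes that have such a region. The untranslated leaders were short in most, at 15 bases in Eif3f, 27 in Eif3e and 33 in Eif3b, against a median of 163 bases over all genes tested. Of the 2 bases that define a favourable start context, a purine at position −3 and a G at +4, counted from the A of the ATG, 4 of 10 genes had both and 1 had neither, against 46.5% and 6.27% of 8747 genes tested. The sequences around the start codon are shown for the genes at the ends of the TE order described below, Eif3l and Eif3f, and for Eif3b, the only member with neither base. Each holds 12 bases before the ATG, which is in capitals, and 9 after it.
Eif3l: agcgccgtagccATGtcttacccc
Eif3f: tttctcggcaagATGgcttctccg
Eif3b: cagcgcgggcccATGcaggacgct

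Many mRNAs of the translation machinery begin with a C followed by a run of pyrimidines, a motif read by growth signalling. RefSeq start sites on GRCm38.p6 were given for 7 of the 10 genes, the others being Eif3e, Eif3h and Eif3i. These starts can differ from the GENCODE starts behind the leader lengths above. For Eif3b the window, chr5:140419295-140419324 on the plus strand, ends before the GENCODE start at 140419328. A run of at least 5 C or T letters that starts with C within 5 bases of the annotated start, read on the strand of the transcript only, was found in 3 of these 7, Eif3b, Eif3f and Eif3l. It was found in 19.5% of 9237 windows of genes tested and in 13 of 25 genes of 40S ribosomal proteins, the best known members of this class. The windows of Eif3f and Eif3l are shown with that of Eif3g, the most abundant member, which has no such run. Each covers 10 bases before the start and 20 from it, with the run in capitals. They lie at chr7:108934405-108934434 on the plus strand for Eif3f, chr15:79075213-79075242 on the plus strand for Eif3l and chr9:20898571-20898600 on the minus strand for Eif3g. The run is 15 letters long in Eif3f, 9 in Eif3l and 5 in Eif3b.
Eif3f: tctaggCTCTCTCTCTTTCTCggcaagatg
Eif3l: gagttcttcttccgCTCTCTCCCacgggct
Eif3g: acccgggctgggagctgcgtggagttaaga

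In WT liver the eIF3 genes spanned a wide range of TE. Eif3l had the highest ratio of RPF to input, 2.50, 2.96 and 2.19 in WT mice 1 to 3, and Eif3f had the lowest, 0.249, 0.285 and 0.156. Against the median gene, the log2 TE of Eif3l was 1.25 higher (SE 0.14, adjusted p = 5.59e-07, limma) and that of Eif3f was −2.24 (SE 0.29, adjusted p = 3.33e-05). These values put Eif3l at the 91.7th percentile and Eif3f at the 3.63rd percentile of the 8994 genes tested.

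The other PCI subunits were mixed. Eif3e had ratios of 1.86, 2.23 and 1.90, which were 0.90 above the median gene on the log2 scale (adjusted p = 2.58e-05, limma). Eif3c had ratios of 1.83, 1.79 and 1.94, which were 0.80 above it (adjusted p = 0.000103, limma). The scaffold Eif3a did not pass, with ratios of 0.850, 1.16 and 0.843 (−0.18, adjusted p = 0.405, limma). Eif3d had ratios of 1.598, 1.69 and 1.37 (0.54, adjusted p = 0.00473, limma). In the module of Eif3b, Eif3g and Eif3i, only Eif3b passed, with 1.35, 1.40 and 1.32 (0.35, adjusted p = 0.0323, limma).

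Eif3g, Eif3i and Eif3h did not differ from the median gene. Eif3g ranged most, with ratios of 0.590, 0.859 and 1.44, whereas Eif3i had 1.26, 1.08 and 0.968 and Eif3h, the second MPN subunit, had 1.13, 0.799 and 0.635. Thus 6 of 10 genes passed, 5 higher and 1 lower. Of all genes tested 57.0% passed, 28.2% higher and 28.8% lower. In the order of TE, ranges of neighbours over the 3 mice overlapped except between Eif3c and Eif3d, Eif3b and Eif3i, and Eif3h and Eif3f.

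The calls of the middle genes depended on length. With RPF per CDS length over input per length of the transcript with the longest CDS, an alternative chosen after the data were seen, Eif3b (−0.31, adjusted p = 0.0559, limma) and Eif3d (−0.21, adjusted p = 0.245, limma) were on the other side of the median gene. On that scale, Eif3c (0.15) and Eif3e (0.12) were above it without passing, and Eif3a (−0.79), Eif3g (−0.9997), Eif3h (−1.01) and Eif3i (−0.71) passed as lower. Thus 6 of 10 passed on this scale, Eif3a, Eif3f, Eif3g, Eif3h, Eif3i and Eif3l, of which only Eif3f and Eif3l had passed without length. Of all 8985 genes tested on this scale, 5166 passed. Per length of CDS and summed exons, 9 of 10 passed, where 5481 of 8985 genes tested passed. Eif3b (−0.72, adjusted p = 0.000135, limma) and Eif3c (−0.39, adjusted p = 0.0265, limma) were lower than the median gene. Eif3a (−0.61) and Eif3h (−1.29) were also lower, and Eif3i (0.42) was higher. Eif3d (0.58) and Eif3e (1.68) were higher on that scale, and Eif3g (−0.74, adjusted p = 0.0923, limma) was the gene that did not pass. Eif3l (0.49 and 0.81) and Eif3f (−1.99 and −2.38) passed on both length scales, in the same direction as without length. The plot of TE in WT liver shows the values without length and those per transcript length. Without WT mouse 1, 2 or 3, Eif3b no longer passed (adjusted p = 0.0752, 0.145 and 0.0879, limma), nor did Eif3d without WT mouse 2 (adjusted p = 0.0541). Eif3h passed without WT mouse 1, at −0.56 (adjusted p = 0.0396).

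**Figure D1:**
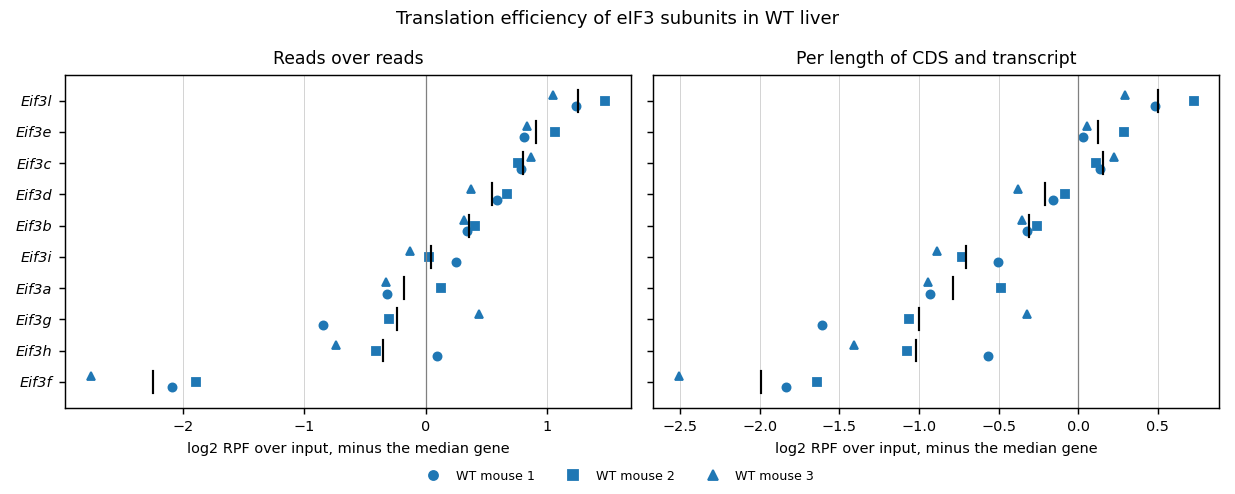
Translation efficiency of the 10 eIF3 genes in WT liver. The horizontal axes give log2 of RPF over input minus the median gene, as reads over reads (left) and per length of CDS and transcript (right), symbols are the 3 WT mice and black ticks are their means. Eif3l is the highest and Eif3f the lowest in both, with Eif3f at −2.24 and −1.99.

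Subunits of a complex are needed in fixed proportions, and RPF density is a common proxy of relative synthesis, so it was compared across subunits in WT liver. RPF density is the normalized RPF value per kb of CDS. Eif3g, an RNA-binding subunit, stood apart with 771, 759 and 939 in WT mice 1 to 3, or 27.7% ± 3.11 (SD, n = 3) of the summed density of the 10 genes, against 10% for equal shares. Eif3c followed with 12.7% ± 1.04, then Eif3b with 10.4% ± 0.613, Eif3l with 10.2% ± 1.38 and Eif3i with 10.0% ± 1.67. Eif3e had 7.62% ± 0.315, and the last were Eif3a (5.79% ± 0.839), Eif3d (5.45% ± 0.112), Eif3f (5.26% ± 1.29) and Eif3h (4.82% ± 0.820).

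The highest density was 6.04-fold ± 1.96 (SD, n = 3 WT mice) that of the lowest. Ranges of shares over the 3 mice did not overlap at 4 of the 9 steps of this order, those from Eif3g to Eif3c, Eif3c to Eif3b, Eif3i to Eif3e and Eif3e to Eif3a. Within the remaining 2 runs, from Eif3b to Eif3i and from Eif3a to Eif3h, neighbours did not differ beyond their spread. The MPN subunits Eif3f and Eif3h averaged 150 ± 29.7 per kb, the 4 PCI subunits 270.0 ± 8.06, and Eif3b, Eif3g and Eif3i 477 ± 30.0, a mean in which Eif3g had 823 against 309 in Eif3b and 298 in Eif3i.

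Sequence shared with other places in the genome was most extensive in Eif3e and Eif3h. Of the 30-base windows of the CDS, 50.9% in Eif3e and 47.0% in Eif3h occur exactly elsewhere in the genome, against 0% in Eif3g and Eif3l and 0.824% to 13.5% in the other 6 genes, and RPF reads with more than 1 location had been dropped. When RPF values were divided by the windows found once, a measure chosen after the data were seen, Eif3e took 13.4% ± 0.487 and ranked second, and Eif3h took 7.92% ± 1.29. Eif3g stayed first with 24.2% ± 2.90, and Eif3f was last with 4.63% ± 1.11. The order between them also changed, with Eif3c at rank 3, Eif3i at rank 4, Eif3b at rank 5 and Eif3l at rank 6. How many reads were lost in this way was not tested, in RPF or in input, where uniquely mapped reads were selected. Of the windows of the whole transcript, 52.6% in Eif3e and 43.8% in Eif3h occur elsewhere. The input levels and TE of these genes carry the same limit.

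Input levels per kb gave another order. Per kb of summed exons, Eif3g was again the highest and Eif3e the lowest, 20.3-fold ± 6.95 apart. Summed exons cover every annotated isoform, and measured 6719 bases in Eif3e against 1506 bases for the transcript with its longest CDS. Per kb of that transcript, Eif3g took 35.5% ± 8.48 (SD, n = 3), with 44.0%, 35.5% and 27.0% in WT mice 1 to 3. Eif3f took 13.0% ± 1.61 and was second, whereas it was ninth of 10 by RPF density. Eif3i took 10.3% ± 0.933, and the 7 others took between 4.02% in Eif3d and 8.24% in Eif3b. On this scale 7 of the 9 neighbouring pairs overlapped, and the highest was 9.35-fold ± 3.97 above the lowest.

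**Figure D2:**
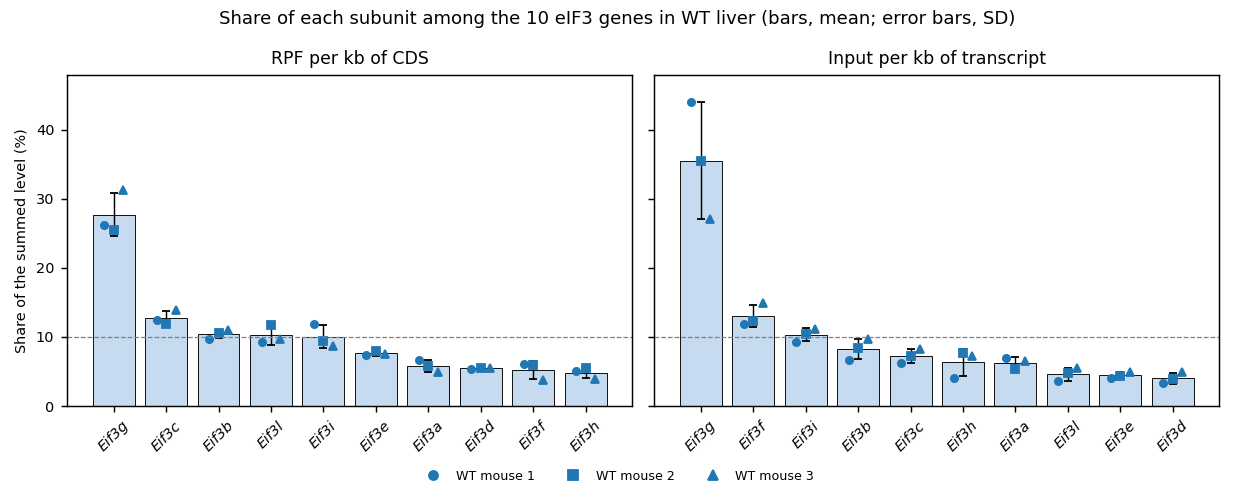
Share of each eIF3 gene in the summed level of the 10 genes in WT liver, in percent, for RPF per kb of CDS (left) and input per kb of transcript (right). Bars are means, error bars are SD, symbols are the 3 WT mice and the dashed line is an equal share of 10%. Eif3g is the highest in both, and Eif3f is second in input and ninth in RPF.

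The mice of a genotype varied far more in the input of Eif3g and Eif3f than in that of the other subunits. The plot of values by mouse shows this spread. Input of Eif3g was 1258, 851 and 629 in WT mice 1 to 3 and 347, 759 and 951 in KO mice 1 to 3, a 3.62-fold range. Input of Eif3f was 774, 676 and 789 in WT and 576, 678 and 1498 in KO, so that KO mouse 3 was above every other mouse. The SD within genotypes on the log2 scale was 0.64 for Eif3g and 0.53 for Eif3f, at the 93.7th and 88.0th percentile of genes tested, against 0.07 to 0.28 for the 8 others and a median of 0.26 over all genes. In RPF the SD of Eif3g was 0.18 and that of Eif3f 0.27, against a median of 0.25. Eif3i and Eif3e varied least in input, with 245 to 275 and 142 to 159 over the 6 mice.

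**Figure D3:**
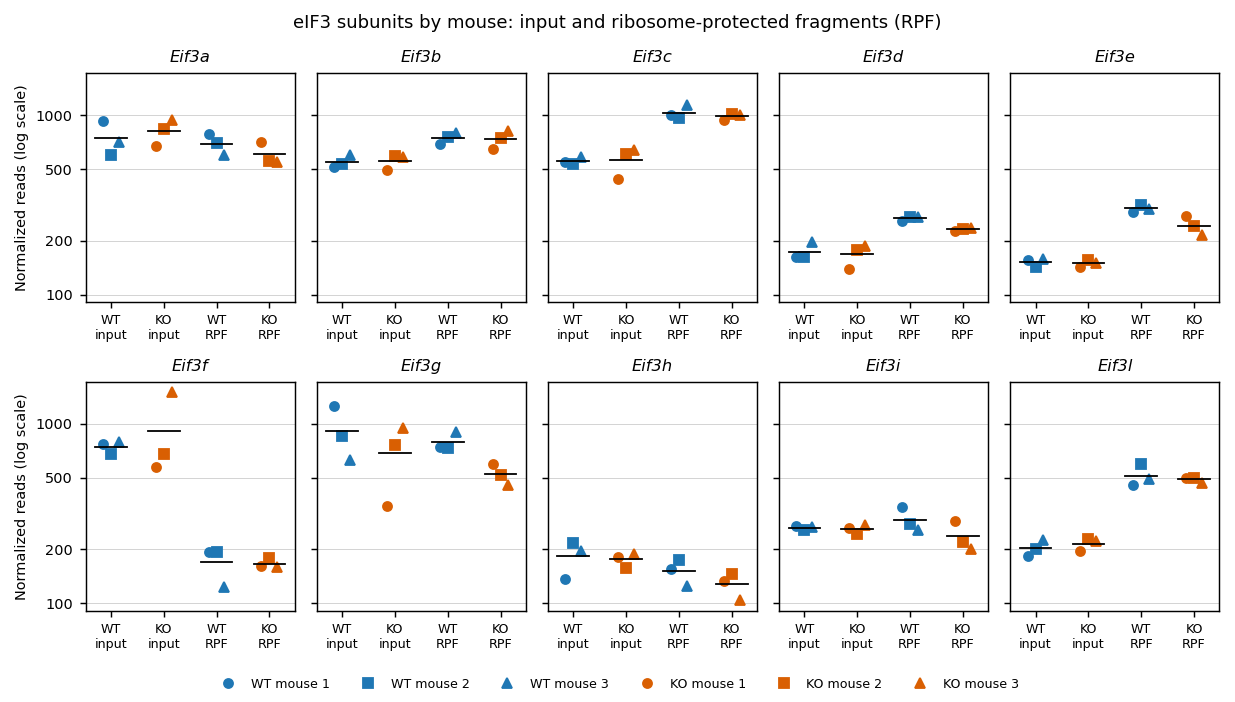
Normalized reads of the 10 eIF3 genes in every mouse, on a log axis, for input and RPF. Symbols mark mice 1 to 3 (mice taken as littermates share a symbol), colours mark genotype and lines are group means. Input of Eif3g ranges from 347 to 1258 and input of Eif3f reaches 1498 in KO mouse 3, whereas RPF of Eif3g is 731 to 904 in WT and 458 to 601 in KO.

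Transcript levels of eIF3 genes did not differ between genotypes beyond the spread between mice. In input, 0 of 10 genes passed and 0 had an unadjusted p under 0.05, with 0% of 10057 genes passing in edgeR, 3.46% with an unadjusted p under 0.05, and 1 gene passing in DESeq2. The log2 fold changes of KO over WT ran from −0.40 in Eif3g to 0.31 in Eif3f (adjusted p = 0.999 for both, edgeR), with a median of 0.02 over the 10 genes and 0.00 over all genes. The intervals were wide for these 2 genes, −1.62 to 0.82 in Eif3g and −0.69 to 1.32 in Eif3f, and for the 8 others they lay between −0.43 and 0.51. For each of the 10 genes the groups overlapped, where 5.60% of the 8994 genes tested were lower in every KO mouse and 3.65% higher. Without KO mouse 3, the value of Eif3f was −0.22, and that of Eif3g ranged from −0.70 without KO mouse 3 to −0.07 without KO mouse 1.

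In RPF, 0 of 10 eIF3 genes passed (adjusted p from 0.328 to 1.00, limma), where 0.489% of 8994 genes passed. This fit takes 1 spread per gene from its 12 input and RPF libraries together, so the spread of a gene in input enters its RPF interval. In a fit of the 6 RPF libraries alone, chosen after the data were seen, 0 of 10 passed (adjusted p from 0.128 to 1.00, limma), where 0.256% of all genes passed. With the RPF libraries alone and the replicate block of litter, 1 of 10 passed, Eif3g, where 3.92% of all genes passed. All 10 log2 fold changes were below 0, with a median of −0.20, where 54.0% of all genes were below 0 and the median of all genes was −0.03. The median of the 10 was −0.12 without KO mouse 3, and −0.10 with the trend of GC content removed, with 9 of 10 below 0. Values near 0 did not keep this sign. With columns centred, Eif3f was at 0.01, and with edgeR on whole reads 8 of 10 genes were below 0, Eif3b (0.00) and Eif3f (0.01) being above. The 10 values come from the same 12 libraries and are not independent.

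The lowest RPF fold change was that of Eif3g. Its RPF value was 742, 731 and 904 in WT mice 1 to 3 and 601, 520 and 458 in KO mice 1 to 3, so every KO mouse was below every WT mouse. The log2 fold change was −0.59 with an interval of −1.38 to 0.20 (adjusted p = 0.502, limma), in the fit that takes in the spread of Eif3g in input. From the RPF libraries alone the interval was −0.92 to −0.26 (adjusted p = 0.128, limma). With these libraries and the replicate block of litter it was −0.89 to −0.30 and passed (adjusted p = 0.0244, limma). In the fit over input and RPF, Eif3g did not pass with the same block (adjusted p = 0.545, limma), nor with the GC trend removed as well (adjusted p = 0.622, limma). KO was lower in 3 of 3 litters. Eif3g lay at the 3.51st percentile of all fold changes. Its share of the summed RPF density was 27.7% in WT and 21.9% in KO and did not overlap between genotypes, in contrast to the shares of the 9 others.

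Eif3e had the smallest p of the 10 genes when the spread was taken over input and RPF, and Eif3g had it from the RPF libraries alone. Its RPF value was 290, 317 and 301 in WT mice 1 to 3 and 273, 240 and 214 in KO mice 1 to 3, also without overlap. The log2 fold change was −0.33 with an interval of −0.62 to −0.03 (unadjusted p = 0.0333, adjusted p = 0.328, limma), and from the RPF libraries alone it was −0.65 to −0.01 (adjusted p = 0.356, limma). Eif3e has the lowest GC content of the 10 coding sequences, 41.2% against a median of 52.7% over the members and 52.5% over genes tested. RPF libraries differed in their GC trend, with slopes of −0.17 to −0.08 log2 units per 10 points of CDS GC in WT and −0.01 to 0.28 in KO. With this trend removed from each library, Eif3e was at −0.05, Eif3a at −0.04 and Eif3c at 0.01, while Eif3g was at −0.68 and Eif3i at −0.33, with none of the 10 passing.

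Eif3d was the last gene whose RPF groups did not overlap. It had 258, 272 and 270 in WT and 227, 231 and 234 in KO, with the smallest SD of the 10 genes in RPF, 0.03 on the log2 scale. Its fold change was −0.21 with an interval of −0.52 to 0.11 (adjusted p = 0.581, limma), and from the RPF libraries alone it was −0.50 to 0.09 (adjusted p = 0.521, limma). The SD of its input was 0.20. In all, 3 of 10 genes were lower in every KO mouse than in every WT mouse, where 12.9% of all genes were, and 0 of 10 were higher in every KO mouse, where 6.97% were.

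The 7 others overlapped between genotypes in RPF. Eif3i, a WD40 subunit, had 342, 276 and 256.3 in WT and 289, 220 and 200 in KO (−0.31, interval −0.64 to 0.02, adjusted p = 0.411, limma), lower in 3 of 3 litters. Eif3h had 156, 174 and 125 in WT and 133, 146 and 104 in KO (−0.25, interval −0.65 to 0.16), also lower in 3 of 3 litters, as was Eif3a with 784, 698 and 599 in WT and 708, 554 and 550 in KO (−0.20, interval −0.56 to 0.16). In all, 6 of 10 genes were lower in KO in each of the 3 litters, Eif3a, Eif3d, Eif3e, Eif3g, Eif3h and Eif3i, where 23.8% of all genes were.

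The remaining 4 genes had fold changes of −0.06 in Eif3c, −0.06 in Eif3l, −0.03 in Eif3b and 0.00 in Eif3f. Eif3c, the scaffold with the most RPF reads, had 1001, 962 and 1139 in WT and 935, 1021 and 1006 in KO. Eif3l had 459, 595 and 492 in WT and 501, 502 and 471 in KO, and Eif3b had 689, 755 and 793 in WT and 646, 743 and 815 in KO. Eif3f had 193, 193 and 123 in WT and 161, 179 and 159 in KO.

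Summed over the 10 genes, RPF density per kb of CDS was 2936, 2974 and 3005 in WT mice 1 to 3 and 2617, 2501 and 2346 in KO mice 1 to 3. Without Eif3g the sums were 2165, 2214 and 2066 in WT and 1993, 1961 and 1871 in KO. Neither sum overlapped between genotypes, where 12.9% of single genes were lower in RPF in every KO mouse than in every WT mouse. No share over other sets of 10 genes was formed, and the GC trend was not removed from the sums. These sums were formed after the values were seen and were not tested.

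TE compares RPF with input from the same liver, and 0 of 10 eIF3 genes passed (adjusted p = 0.998 for each, limma), where 0% of all genes passed and 4.70% had an unadjusted p under 0.05. edgeR on whole reads also gave 0 genes. Neither fit pairs the input and RPF of a mouse. With a block of mouse, 0 of 8994 genes passed and 774 had an unadjusted p under 0.05 (limma). All 10 log2 fold changes of TE were below 0, with a median of −0.16, where 51.3% of all genes were below 0 and their median was −0.01. The median of the 10 ranged from −0.34 without KO mouse 1 to −0.09 without KO mouse 3. With the GC trend removed, 9 of 10 were below 0, with Eif3c at 0.01. Without KO mouse 3 the count was 7 of 10, with Eif3c at 0.03, Eif3f at 0.28 and Eif3g at 0.28. No gene had TE groups without overlap, where 7.34% of all genes were lower and 6.09% higher in every KO mouse.

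The order of the TE values changed with the mouse left out. The scaffold Eif3a was at −0.34 with an interval of −0.85 to 0.17, from ratios of 0.850, 1.16 and 0.843 in WT and 1.06, 0.658 and 0.586 in KO, and it ranged from −0.60 to −0.17 without 1 mouse and was at −0.22 with the GC trend removed. The PCI subunit Eif3e was at −0.30 with an interval of −0.72 to 0.12, and its ratios were 1.92, 1.54 and 1.42 in KO. Eif3i was at −0.29 with an interval of −0.76 to 0.18. Its KO ratios of 1.10, 0.900 and 0.726 were below those of the WT littermates in 3 of 3 litters, the only gene of the 10 of which this held. The share of all genes lower in TE in each of the 3 litters was not formed, so this does not set Eif3i apart. Eif3h was at −0.20, Eif3f at −0.17, Eif3d at −0.16, Eif3l at −0.15, Eif3g at −0.12, Eif3c at −0.06 and Eif3b at −0.04. The upper bound of these intervals was above 0 for each gene, and the widest, −1.23 to 0.997, was that of Eif3g.

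**Figure D4:**
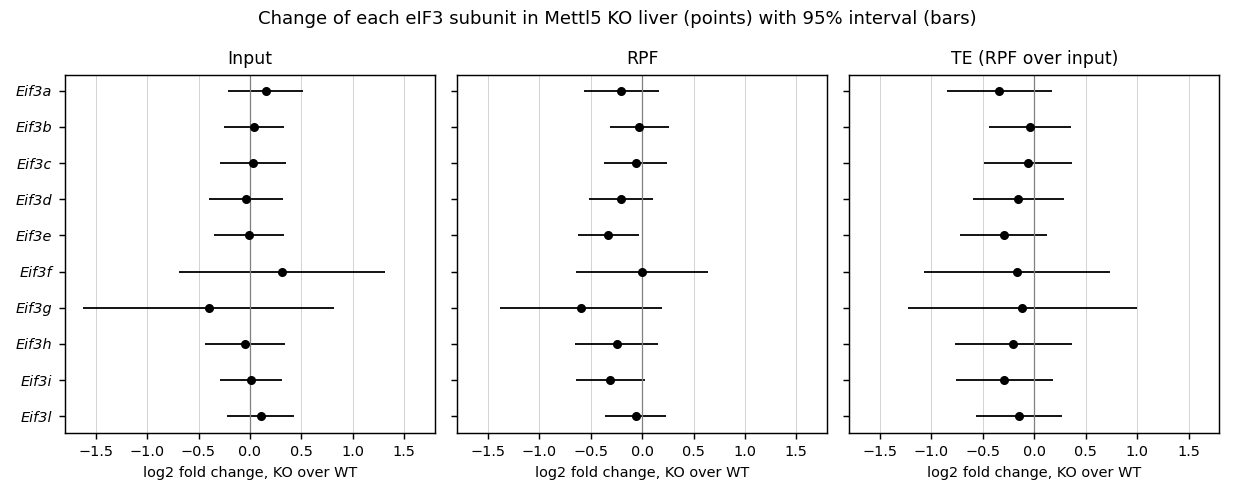
Log2 fold change of KO over WT for each eIF3 gene in input, RPF and TE. Points are fitted values from 3 mice per genotype and bars are 95% intervals. All points are below 0 in TE and at or below 0 in RPF, and the interval of Eif3e in RPF, −0.62 to −0.03, is the only one of the 30 that leaves out 0.

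Of the other eIF3 subunits, Eif3k and Eif3m, both of the octamer of PCI and MPN proteins, were in the table. Eif3m had RPF values of 193, 241 and 226 in WT mice 1 to 3 and 145, 141 and 129 in KO mice 1 to 3, with no overlap. Its fold change was −0.66 (SE 0.16, adjusted p = 0.0638, limma), and it passed with the replicate block of litter (adjusted p = 0.0152, and 0.0197 from the RPF libraries alone) and without KO mouse 1 (adjusted p = 0.0441). With the GC trend removed it was at −0.45 (adjusted p = 0.314, and 0.138 with the replicate block), and 62.6% of its CDS windows occur elsewhere in the genome. Eif3k had 288, 288 and 250 in WT and 245, 197 and 194 in KO (−0.38, adjusted p = 0.343, limma), also without overlap. Their TE values were −0.45 in Eif3m and −0.49 in Eif3k (adjusted p = 0.998 for both, limma). In WT liver the TE of Eif3k was 0.90 above the median gene (adjusted p = 0.000167, limma) and that of Eif3m 0.25 above (adjusted p = 0.192). Eif3j1, a loosely bound subunit, was tested in input (−0.44, adjusted p = 0.999, edgeR). Of the windows of its whole transcript 87.8% occur elsewhere, as do 99.7% of its CDS windows.

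Partners of eIF3 in initiation gave no calls between genotypes, where 0.489% of all genes passed in RPF and 0% in input and TE. So few calls over all genes leave these counts with little to say about the partners. Genes tested in RPF were 6 of the 7 listed eIF1, eIF5 and recycling factors and 3 of 3 subunits of eIF2. They were 8 of 9 eIF4 factors and PABP and 16 of 33 proteins of the 40S subunit. Among eIF1, eIF5 and recycling factors, 0 of 6 passed in RPF or TE, with a median RPF change of −0.20, the lowest being Eif5, the GTPase activator of eIF2 (−0.34). Among the 3 subunits of eIF2, which brings the initiator tRNA, 0 passed in RPF, with a median of −0.58, the lowest being Eif2s2 (−0.60, adjusted p = 0.182, limma). Among 8 eIF4 factors and PABP, 0 passed in RPF, with a median of −0.05 between Eif4e, the cap-binding protein (−0.43), and Pabpc1 (0.27). Among 16 proteins of the 40S subunit 0 passed in RPF, with a median of 0.12 between Rps14 (−0.50) and Rps25 (0.43).

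Of the 33 genes in the list of 40S proteins, only 16 were tested for TE in WT liver. Of these 16, 13 passed as lower than the median gene and 0 passed as higher, with a median of −1.17. Of all genes tested, 28.8% passed as lower and 28.2% as higher. The lowest was Rps14 at −3.90. Whether reads shared with copies elsewhere in the genome were lost for this list was not tested. The eIF3 genes had a median of 0.20, but −0.51 per CDS and transcript length and −0.50 per CDS and exon length, and without length only Eif3f, at −2.24, lay below the median of the 40S list.

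The genes whose profile over the 6 mice was most like the mean profile of the 10 eIF3 genes were Clybl (r = 0.957 over 6 input libraries and 0.946 over 6 RPF libraries), Rbbp7 (0.909 and 0.899) and Atp6v1c1 (0.922 and 0.894). Within the complex, r with this mean in RPF was 0.778 to 0.943 for Eif3a, Eif3d, Eif3e, Eif3g, Eif3h and Eif3i, and −0.32 to 0.46 for Eif3b, Eif3c, Eif3f and Eif3l. All points share library and depth, and each member is part of the mean it is set against, so these values are descriptions.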

How the data were processed

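Input counts, deposited as whole read pairs per gene, were made by the authors with BBDuk, STAR 2.7.3a on mm10, selection of uniquely mapped reads and strand-aware featureCounts 1.6.0. RPF reads of footprint length were stripped of rRNA and mapped by RiboToolkit to a single location. The deposited table holds normalized signal, reads divided by 1 factor per library, and whole reads were recovered for 100% of values (tolerance 0.01). Its columns of fold changes and p-values were not used.

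Input was tested on counts with edgeR 4.0.16 (TMM, quasi-likelihood), RPF and TE with limma 3.58.1 in R 4.3.3 on log2(value + 1) for 8994 genes with means of at least 10 in input and in RPF, which understates changes of low genes. This fit shares 1 spread per gene over input and RPF and does not pair the input and RPF of a mouse. RPF was also fitted on its 6 libraries alone. TE is the difference of the RPF and input contrasts, and baseline TE is log2 RPF minus input in WT against the median gene. Adjusted p-values are Benjamini-Hochberg over all genes tested, two-sided, with a threshold of 0.05, and intervals are 95%. Fits were tested on simulated data. Members, lists and tests were chosen with earlier results of these data known. Named genes were the 10 members, Mettl5, other eIF3 subunits, the highest and lowest of each list, and the 3 genes with the highest lower Pearson r with the mean profile of the members. A further gene that this rule names is not reported here. The labels number the mice without naming a litter, and a WT and a KO mouse of the same number were taken as littermates and paired. Their deviations from the group means correlated with 0.0816 to 0.127 in input and 0.144 to 0.242 in RPF. For mice of different numbers r was −0.117 to 0.0169 in input and −0.239 to 0.0813 in RPF. Deviations from means of 3 mice bind these values to each other, and the pairing was not tested.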

Additional observations from a re-analysis of the deposited data

How the results depend on the processing

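Across the alternatives, including DESeq2 1.42.0, pseudocounts of 0.1 and 5, no filter, GC removal, blocks of mouse or litter and leaving out each mouse, 0 of 10 eIF3 genes passed in input or TE. In RPF 0 of 10 passed, except that 1 of 10, Eif3g (−0.59, adjusted p = 0.0244, limma), passed from the RPF libraries alone with the replicate block of litter, a fit chosen after the data were seen. The count of all genes that passed in input was 1 with DESeq2, 30 with no count filter, 2 with the replicate block and 0 to 21 without 1 mouse. In RPF it was 44 as reported, 293 with the replicate block, 86 with the GC trend removed and the replicate block, 13 with the GC trend removed alone, 23 from the RPF libraries alone, 353 from these with the replicate block, and 0 to 226 without 1 mouse (0 without KO mouse 2, 226 without KO mouse 1). The replicate block changed no other call of the 10 genes. In baseline TE, 6 of 10 genes passed, 9 did per CDS and exon length, and 4 to 6 did without 1 WT mouse. Of all genes, 5126 of 8994, 5481 of 8985 and 4243 to 4444 did. Single log2 values that changed sign were in input that of Eif3e with no count filter (0.0058), in RPF those of Eif3c with the GC trend removed, with or without the replicate block (0.0077), Eif3f with columns centred (0.013), and Eif3b (0.00037) and Eif3f (0.0071) with edgeR on whole reads, and in TE that of Eif3c with the GC trend removed, with or without the replicate block (0.0051). In baseline TE, per CDS and exon length Eif3b was at −0.72 and Eif3c at −0.39, and per CDS and transcript length Eif3b was at −0.31, Eif3d at −0.21 and Eif3i at −0.71. Those that changed sign without 1 mouse, with their range over the mice left out, were in input Eif3d (−0.11 to 0.085), Eif3e (−0.055 to 0.024), Eif3i (−0.018 to 0.061), Eif3b (−0.0079 to 0.12), Eif3c (−0.068 to 0.18), Eif3h (−0.21 to 0.088) and Eif3f (−0.22 to 0.56). In RPF they were Eif3b (−0.10 to 0.064), Eif3f (−0.21 to 0.11), Eif3l (−0.14 to 0.047) and Eif3c (−0.11 to 0.0082). In TE they were Eif3g (−0.65 to 0.28), Eif3c (−0.19 to 0.033), Eif3f (−0.42 to 0.28) and Eif3h (−0.40 to 0.019). In baseline TE they were Eif3g (−0.57 to 0.078) and Eif3i (−0.042 to 0.14). The RPF density of the highest over the lowest subunit was 9.05-fold per exon length and the input level 9.49-fold per CDS length and 9.35-fold per transcript length, against 6.04-fold and 20.3-fold as reported. The lowest depth of the 10 genes in input was 75 reads, for Eif3h in WT mouse 1.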
